A study of Mus musculus with 18 samples.

Results

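The TREM, PILR, LAIR1 and TARM1 receptors are paired receptors of myeloid cells, and 10 of the 55029 genes in the count files encode the members described here. The members were chosen by name, as the genes whose Ensembl identifier carries 1 of the symbols *Trem1*, *Trem2*, *Trem3*, *Treml2*, *Treml4*, *Pilra*, *Pilrb1*, *Pilrb2*, *Lair1* and *Tarm1*, and the family was picked for description with earlier results of these data in view, including its levels in the libraries and its change with each stimulus. Changes of members, between stimuli as well as against unstimulated cells, are therefore given as descriptions, with no p-value for a member.

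Paired receptors are related surface proteins of which some activate and others restrain the same cell. The activating ones have short tails and signal through the adaptors DAP12 or the Fc receptor γ chain, which engage Src family kinases and Syk, whereas the inhibitory ones carry tyrosine motifs in their tails that recruit phosphatases. TREM1 amplifies inflammatory responses of neutrophils and monocytes, PILRα and PILRβ share ligands on other cells, and LAIR1 and TARM1 are encoded in the leukocyte receptor complex, where LAIR1 restrains cells that meet collagen. Here 7 members were taken as activating (*Trem1*, *Trem2*, *Trem3*, *Treml4*, *Pilrb1*, *Pilrb2*, *Tarm1*) and 2 as inhibitory (*Pilra*, *Lair1*), and *Treml2* was placed in neither class.

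The study asked how eosinophils respond to type 1 and type 2 stimuli. Eosinophils came from the peritoneal cavity of C57BL/6 mice of the NJ.1638 line with an *Il5* transgene, which every group shares, after removal of cells bound by antibodies to Thy1.2 and B220. The study checked purity by flow cytometry, used cells above a minimum of purity and viability, and described the remaining cells as mostly lymphocytes. The promoter of the transgene, the age of the mice and any pooling of animals were not given in the sources used here. Cells were cultured for 18 h with IL-4 at 100 ng/ml, with IFN-γ at 50 ng/ml, with heat-inactivated *E. coli*, or with IFN-γ at 50 ng/ml and *E. coli* together, and the incubation of unstimulated cells was not stated. Each of these 4 groups has 3 libraries. Unstimulated libraries a to c belong to the same file layout as the *E. coli*, IFN-γ and combined groups, and unstimulated libraries d to f belong to that of the IL-4 group, so each stimulus is set against the unstimulated libraries of its own set. The study refers to the libraries of a group as biological replicates, while the labels do not say whether they came from separate cultures or animals, and calls rest only on the spread between these libraries, which may be technical.

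RNA was measured with CEL-Seq2, which reads the 3′ end of transcripts. Counts on genes were 2419241, 1562034 and 2211861 in unstimulated libraries a, b and c. They were 2318235, 2734041 and 1980073 with *E. coli*, 1859508, 2006059 and 1654831 with IFN-γ, and 1523808, 1970637 and 1719468 with both stimuli. The second set was deeper, with 3625036, 6482289 and 5294968 in unstimulated libraries d, e and f and 5121421, 5909700 and 3827767 with IL-4. Levels are in CPM, TMM-normalised counts relative to library size, as the mean ± SD of 3 libraries. The lowest level set apart from 0 was 3 counts, which equals 1.10 to 1.97 CPM in the first set and 0.463 to 0.828 CPM in the second, a floor that covers counting error only. A gene is called higher or lower where edgeR's quasi-likelihood test gave a Benjamini-Hochberg adjusted p under 0.05 over all genes tested, with no fold threshold. Levels are not compared between the sets. Between genes they enter only ratios, sums and shares of counts within a library, which also hold differences in how well each gene is counted and are read by how they change between groups.

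The sets differ in the range of their counts. In the first set the highest gene of a library stood at 4089 to 4095 counts, just under the 4096 identifiers that 6 bases can form, while in the second it stood at 87377 to 191131. Such a ceiling would compress high counts. The first set may thus hold molecules and the second reads, in which case 3 counts, the spread between libraries and the fit of all 18 libraries mean different things in the 2 sets. Among the members only *Treml2*, at up to 52.05% of 4096, and *Pilra*, at up to 29.35%, came near enough for this to matter, followed by *Trem1* at 16.67% and *Lair1* at 12.26%. A correction for the ceiling, chosen after seeing the data, is given where it changes a call. Unstimulated library e stood apart from d and f, with a chi-square per gene of 21.4 and 19.8 against 7.17 between d and f, so changes of members and of named genes with IL-4 are also given without it, while levels and sums include it. For genes outside the family this was added after seeing the data.

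The members lie in 3 groups in the genome (GRCm38, GENCODE M21). *Trem1* (ENSMUSG00000042265, chr17:48232768-48246924), *Trem3* (ENSMUSG00000041754, chr17:48247777-48258841), *Treml4* (ENSMUSG00000051682, chr17:48264295-48275360), *Treml2* (ENSMUSG00000071068, chr17:48299498-48312533) and *Trem2* (ENSMUSG00000023992, chr17:48346401-48354147) follow each other on the plus strand. *Pilra* (ENSMUSG00000046245, chr5:137821952-137836281), *Pilrb1* (ENSMUSG00000066684, chr5:137852147-137858106) and *Pilrb2* (ENSMUSG00000066682, chr5:137865827-137871815) are neighbours on the minus strand. *Tarm1* (ENSMUSG00000053338, chr7:3486500-3502624) and *Lair1* (ENSMUSG00000055541, chr7:4003402-4063204) lie on the minus strand of another chromosome. All 10 are annotated as protein coding.

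The *Pilr* genes share sequence, and this limits how far their counts can be told apart. Transcripts of *Pilrb1* and *Pilrb2* were 95.8% identical over 1807 bases, including all of the last 500 bases, from which CEL-Seq2 reads come. *Pilra* matched *Pilrb1* at 95.5% over 573 bases and *Pilrb2* at 95.8% over 565 bases, and 369 of its last 500 bases lay in these stretches. It also resembled *CT010445.1* over 207 bases, none of them in the last 500. Reads that mapped to more than 1 place were not counted, so the levels of these 3 genes are uncertain, as is the split between them. *Pilra* also shares 468 exonic bases with *Zcwpw1* on the opposite strand, and 300 of its last 500 bases match that gene. *Zcwpw1* had at most 8 counts in any library, which does not show that counts of *Pilra* are unaffected. The antisense genes *Gm36551* and *Gm43495* beside *Pilrb1* and *Pilrb2* had at most 1. *Lair1* has stretches of 304 and 252 bases that resemble *Vmn2r86* and *Gm9818* on the opposite strand, all of them in its last 500 bases. The strand setting of the counting was not given in the sources used here, so the level of *Lair1* is uncertain as well, and that of *Pilra* for this reason too. *Trem1*, *Trem2*, *Trem3*, *Treml2*, *Treml4* and *Tarm1* had no stretch of at least 200 bases at 95% identity in another gene.

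With *E. coli*, 7 of the 9 members that passed the filter on low counts were called higher and 1 lower, where 13.5% of the 9883 genes tested were called higher and 16.7% lower. In the IFN-γ group 6 of 9 were called higher, beside 15.6% of genes called higher and 16.0% lower, and with both stimuli 7 were called higher and 1 lower, beside 23.9% and 25.2%. IL-4 differed, with 1 of 10 called higher and 4 lower, beside 5.97% and 4.35% of the 10556 genes tested in the second set. Because the family was picked with these changes known, nothing is read from the counts. The median log2 fold change of the members was 1.51, 0.75 and 1.60 with *E. coli*, IFN-γ and both, and -0.67 with IL-4, against -0.02, -0.03, -0.04 and 0.00 for all genes tested. *Trem2* did not pass the filter in the first set. Groups of 3 libraries often do not overlap, and those of 45.3%, 45.7%, 54.1% and 31.3% of all genes tested lay apart with *E. coli*, IFN-γ, both and IL-4, so nothing is read from a lack of overlap alone.

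**Figure D1:**
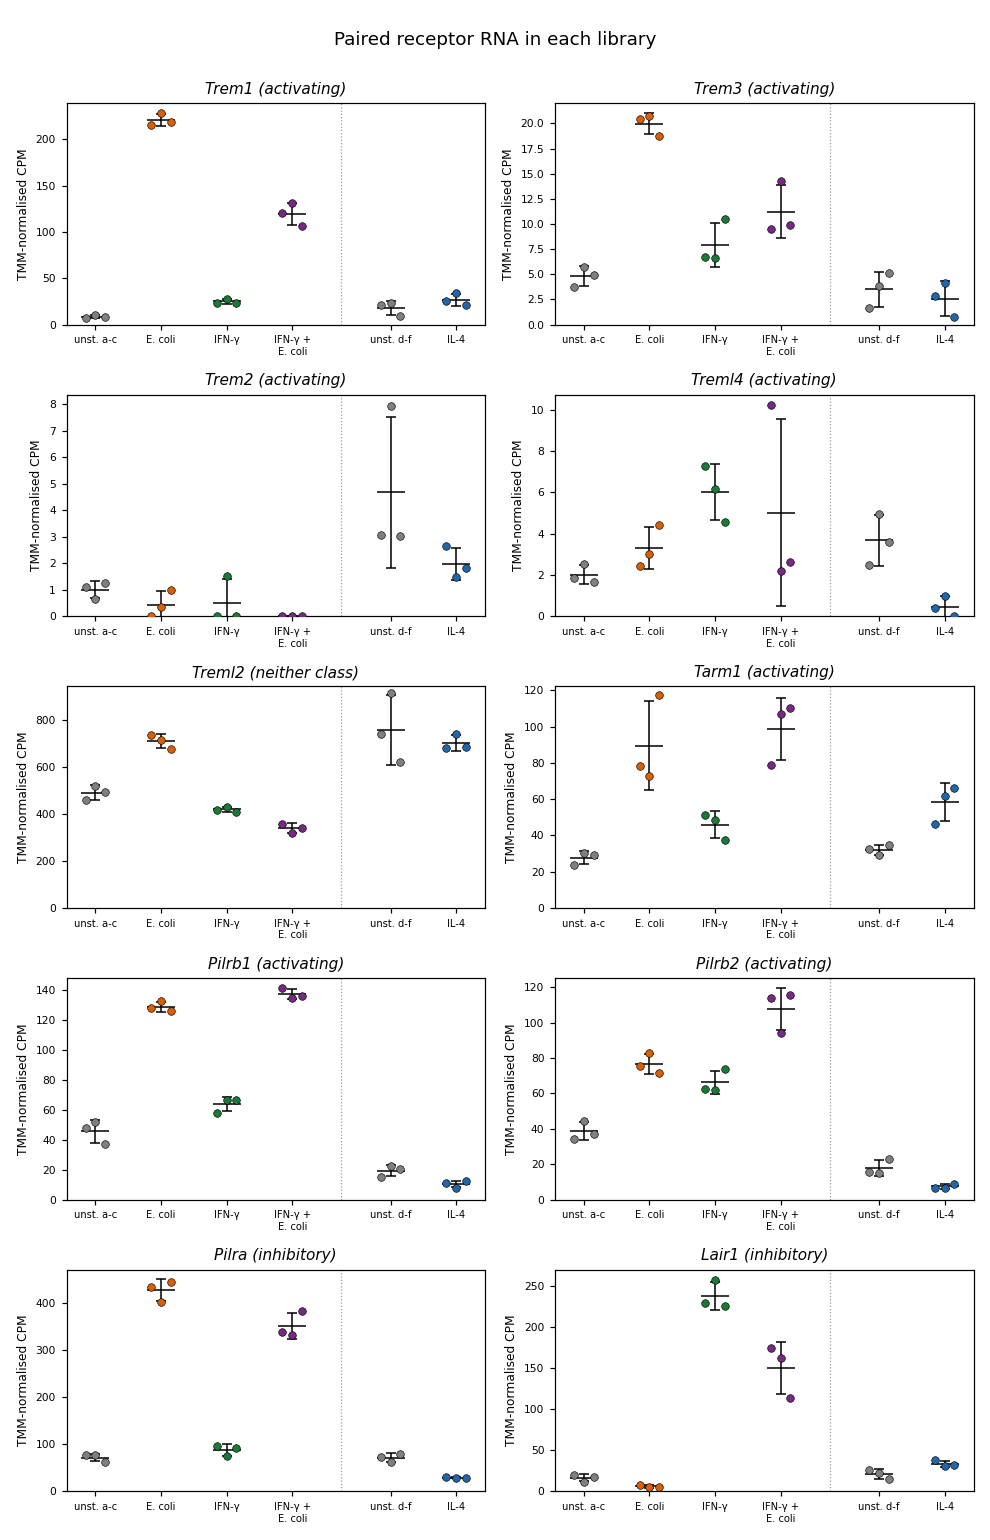
TMM-normalised CPM of each member (vertical axes from 0) in the 18 libraries, with 1 point per library, the mean as a horizontal line and the SD as error bars (n = 3; a bar that would reach below 0 is clipped). The dotted line separates the sets, which are not compared. *Trem1* and *Pilra* are highest with *E. coli*, *Lair1* is highest with IFN-γ, and *Pilra*, *Pilrb1* and *Pilrb2* are lowest with IL-4 within their set.

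Among the activating members, *Trem1* changed most with *E. coli*. Its RNA stood at 7.08, 10.1 and 8.26 CPM in unstimulated libraries a, b and c, and at 215, 228 and 219 CPM with *E. coli*. IFN-γ alone gave 23.5, 28.2 and 23.5 CPM, and both stimuli gave 121, 131 and 107 CPM. The 4 groups did not overlap, and their order from low to high was unstimulated, IFN-γ, both stimuli, *E. coli*. The log2 fold change was 4.73 ± 0.15 (SE) with *E. coli*, a 26.5-fold rise, 1.60 ± 0.20 with IFN-γ and 3.84 ± 0.16 in the combination. With all 6 unstimulated libraries as one group, which joins the sets, the call with IFN-γ was lost, at 0.64, and the values with *E. coli* and both were 3.753 and 2.911. In the second set *Trem1* stood at 20.8, 23.9 and 9.06 CPM in libraries d, e and f and at 25.9, 33.7 and 20.997 CPM with IL-4. These groups overlapped, since the lowest IL-4 library lay below the highest unstimulated one, and the log2 fold change of 0.60 ± 0.32 was not called, nor was it without library e, at 0.91, while it was called with all 6 unstimulated libraries as one group, at 1.13. Over the alternatives this log2 fold change ranged from 0.26 to 1.13.

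*Tarm1*, an activating receptor that pairs with the Fc receptor γ chain, was called higher with every stimulus. Unstimulated libraries a, b and c held 23.5, 30.4 and 29.3 CPM, and those with *E. coli* 78.3, 72.6 and 118 CPM. With IFN-γ the values were 51.5, 48.7 and 37.3 CPM, and with both stimuli 78.9, 107 and 110.1 CPM. Each stimulated group lay above the unstimulated one, whereas *E. coli* and the combination overlapped with each other. The log2 fold changes were 1.69 ± 0.20 (SE), 0.75 ± 0.22 and 1.85 ± 0.20 in this order, and the call with IFN-γ was lost without library a, at 0.63, without IFN-γ library 1, at 0.67, or with all 6 unstimulated libraries as one group, at 0.41. With IL-4 *Tarm1* rose from 32.2, 29.0 and 34.7 CPM in libraries d, e and f to 46.4, 62.0 and 66.4 CPM. It was the only member called higher with IL-4 over all 6 libraries, by 0.86 ± 0.17 on the log2 scale and by 0.79 without library e, although the call was lost without IL-4 library 2, at 0.81, or 3, at 0.75. The highest *Tarm1* value with *E. coli* was in library 3, in which macrophage markers also summed to 2739 CPM, against 1591 and 1542 CPM in libraries 1 and 2, and mast cell markers to 35.5 CPM, against 10.6 and 8.02 CPM. In the combination, mast cell markers summed to 40.2, 80.5 and 73.2 CPM in libraries 1, 2 and 3. The part of these cells in the *Tarm1* values was not tested.

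*Pilrb1* and *Pilrb2*, the activating partners of *Pilra*, rose with *E. coli* and IFN-γ and fell with IL-4. *Pilrb1* stood at 47.7, 52.0 and 37.2 CPM in libraries a, b and c, at 128, 133 and 126 CPM with *E. coli*, at 58.2, 66.6 and 66.7 CPM with IFN-γ and at 142, 135 and 137 CPM with both. *Pilrb2* stood at 34.3, 44.4 and 37.2 CPM, at 75.5, 82.9 and 71.6 CPM, at 62.7, 62.0 and 73.9 CPM and at 114, 94.2 and 115 CPM in the same order. For both genes every stimulated library lay above every unstimulated one, and the combination gave the highest mean. The groups of *Pilrb2* with IFN-γ and with *E. coli* overlapped, while those of *Pilrb1* did not. Log2 fold changes with *E. coli*, IFN-γ and both were 1.51 ± 0.13 (SE), 0.50 ± 0.13 and 1.60 ± 0.13 for *Pilrb1* and 1.01 ± 0.14, 0.79 ± 0.15 and 1.49 ± 0.14 for *Pilrb2*. The call of *Pilrb1* with IFN-γ was lost without library c, at 0.37.

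With IL-4 *Pilrb1* went from 15.3, 22.4 and 20.6 CPM in libraries d, e and f to 11.0, 7.98 and 12.2 CPM, and *Pilrb2* from 15.8, 14.7 and 22.8 CPM to 6.47, 6.81 and 9.07 CPM. All IL-4 libraries lay below all unstimulated ones for both genes. The log2 fold change was -0.92 ± 0.24 (SE) for *Pilrb1* and -1.27 ± 0.26 for *Pilrb2*, and -0.82 and -1.41 without library e. Both calls rested on few libraries. That of *Pilrb1* was lost without library f (-0.89) and without IL-4 library 1 (-0.96), 2 (-0.76) or 3 (-1.05), and that of *Pilrb2* without IL-4 library 1 (-1.17) or 2 (-1.22).

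*Trem3*, a neighbour of *Trem1* that also signals through DAP12, was a low transcript with the same order of means. It had 3.73, 5.70 and 4.96 CPM in libraries a, b and c, 20.4, 20.7 and 18.8 CPM with *E. coli*, 6.72, 6.66 and 10.5 CPM with IFN-γ and 9.49, 14.2 and 9.89 CPM with both. *E. coli* libraries lay above all others, and those with IFN-γ and with both stimuli overlapped. *Trem3* rose by 2.09 ± 0.27 (SE) on the log2 scale with *E. coli* and by 1.28 ± 0.31 with both, and the 0.74 ± 0.33 with IFN-γ was not called. In the second set it ranged from 0.778 to 5.10 CPM, and the change with IL-4 of -0.42 ± 0.56, or -0.38 without library e, was not called. Over the alternatives this change ranged from -0.93 to -0.05.

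*Treml4* and *Trem2*, activating receptors known from macrophages, were near the floor in the first set. *Treml4* had 4 to 5 counts in libraries a to c, 6 to 9 with *E. coli*, 7 to 13 with IFN-γ and 4 to 14 with both, and neighbouring groups overlapped in the order of means. With *E. coli* the log2 fold change of 0.71 ± 0.57 (SE) was not called. *Treml4* was called higher with IFN-γ, by 1.60 ± 0.54, a call that was lost without library a (1.56), c (1.49), IFN-γ library 1 (1.46) or 2 (1.62), with DESeq2 (1.63) and with all 6 unstimulated libraries as one group (0.77). With both stimuli the value of 1.25 ± 0.58 was not called, while it was called without library 2 (1.66) or 3 (1.55) of that group. It was 0.31 without library 1, which had 14 counts against 4 in each of the others. With IL-4 *Treml4* fell by 2.81 ± 0.68 from 9 to 30 counts to 0 to 6 counts, and the value was -2.53 without library e and -3.97 without IL-4 library 2, which held 6 counts against 2 and 0 in the others. That call was lost without library f (-2.85) or without IL-4 library 1 (-2.64) or 3 (-2.39).

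*Trem2* had at most 3 counts in each of the 12 libraries of the first set and 0 in all 3 with both stimuli, and no fold is given. In the second set it had 11, 48 and 16 counts in libraries d, e and f, or 3.05, 7.95 and 3.02 CPM, and 14, 9 and 7 counts with IL-4, or 2.66, 1.495 and 1.81 CPM. The groups did not overlap, yet the log2 fold change of -1.26 ± 0.50 (SE) was not called, and it was -0.61 without library e, which held the highest value.

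Of the inhibitory members, *Pilra* followed *E. coli*. It stood at 76.8, 76.1 and 61.9 CPM in libraries a, b and c and at 434, 402 and 446 CPM with *E. coli*. IFN-γ gave 96.8, 73.8 and 92.2 CPM, and both stimuli gave 338, 331 and 383 CPM. Libraries with *E. coli*, alone or combined, lay far above the rest, whereas those with IFN-γ overlapped with unstimulated ones. *Pilra* rose 5.98-fold with *E. coli*, a log2 fold change of 2.58 ± 0.13 (SE), and 4.91-fold with both, at 2.30 ± 0.13. The 0.29 ± 0.13 with IFN-γ was not called, and it was called without IFN-γ library 2, at 0.44. With IL-4 *Pilra* went down from 72.2, 62.6 and 80.03 CPM in libraries d, e and f to 29.3, 27.6 and 28.5 CPM, with no overlap. This fall of -1.33 ± 0.15 on the log2 scale, or -1.43 without library e, was called with any 1 library left out.

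*Lair1*, the inhibitory collagen receptor, followed IFN-γ and went the other way with *E. coli*. Unstimulated libraries a, b and c held 19.7, 11.4 and 17.3 CPM, and those with *E. coli* 8.16, 5.02 and 5.43 CPM. With IFN-γ *Lair1* stood at 229, 257 and 226 CPM, and with both stimuli at 174, 163 and 113 CPM. No 2 of these groups overlapped, and *E. coli* gave the lowest and IFN-γ the highest values. The log2 fold change was -1.43 ± 0.28 (SE) with *E. coli*, 3.83 ± 0.19 with IFN-γ, a 14.2-fold rise, and 3.16 ± 0.19 with both. In the second set *Lair1* stood at 26.4, 22.0 and 14.9 CPM in libraries d, e and f and at 37.5, 31.1 and 31.6 CPM with IL-4. The IL-4 libraries lay above the others, but the 0.67 ± 0.21 was not called with all 6 libraries, and it was called without library d (0.84) or e (0.72), with no filter on low counts (0.65), in a fit of all 18 libraries (0.69) and with all 6 unstimulated libraries as one group (1.00).

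*Treml2*, a receptor of myeloid and B cells with no adaptor-binding residue of the TREM type, moved little against unstimulated libraries. Its counts reached 52.05% of the ceiling in the first set, so changes there may be compressed. Its values were 457, 518 and 494 CPM in libraries a, b and c, 734, 713 and 676 CPM with *E. coli*, 417, 430.1 and 408 CPM with IFN-γ and 359, 318 and 342 CPM with both. The groups did not overlap, and *E. coli* stood above and the combination below the unstimulated group. The log2 fold changes were 0.53 ± 0.10 (SE) with *E. coli* and -0.53 ± 0.10 with both, both called, and -0.23 ± 0.10 with IFN-γ, which was not called and became called, at -0.29, after the correction for the ceiling and, at -0.80, with all 6 unstimulated libraries as one group. That setting also ended the call with *E. coli*, at -0.06. IL-4 libraries at 678, 738 and 685 CPM overlapped with libraries d, e and f at 739.9, 912 and 618 CPM, and the -0.11 ± 0.14 was not called. Its sign rested on library e, without which it was 0.04.

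Adding *E. coli* to IFN-γ raised most of the receptors that *E. coli* raised alone. Against IFN-γ alone, 5 of 9 members were higher with both stimuli and 1 was lower, where 6.25% of genes were higher and 5.98% lower. *Trem1* was higher by 2.24 ± 0.14 (SE) on the log2 scale and *Pilra* by 2.00 ± 0.13. *Pilrb1*, *Tarm1* and *Pilrb2* were higher by 1.11, 1.10 and 0.70. *Lair1* was lower by -0.66 ± 0.15. The groups of these 6 genes did not overlap, nor did those of 28.1% of all genes. *Treml2* at -0.30, *Trem3* at 0.54 and *Treml4* at -0.35 were not called, and *Treml2* was called with DESeq2, at -0.30, with the replicate number as a block, at -0.33, and after the correction for the ceiling, at -0.34.

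Adding IFN-γ to *E. coli* lowered *Trem1* and *Treml2* and raised *Lair1*. Here 2 of 9 members were higher and 3 lower, beside 17.5% and 15.3% of genes. *Lair1* was higher by 4.59 ± 0.22 (SE) on the log2 scale, with means of 6.20 ± 1.71 CPM (SD, n = 3) with *E. coli* and 150.0 ± 32.1 CPM with both. *Trem1* was lower by -0.89 ± 0.11 and *Treml2* by -1.06 ± 0.10, each without overlap, as for 44.7% of all genes. *Pilrb2* was higher by 0.48 ± 0.13. *Trem3* was lower by -0.81 ± 0.24, a call lost without *E. coli* library 2 (-0.79), without library 1 (-0.71) or 3 (-0.73) of the combination, and with DESeq2 (-0.80). *Pilra* at -0.28 ± 0.11 was not called with all libraries. It was called without library 3 of the combination and after the correction for the ceiling, at -0.36 in each case. With the replicate number as a block it was also called, at -0.29. *Pilrb1* at 0.09 and *Tarm1* at 0.16 were not called, and with scaling to library totals, which moves the median gene by -0.23, their log2 ratios were -0.14 and -0.08. In the fits under the alternatives *Pilrb1* ranged from 0.050 to 0.108 and *Tarm1* from 0.019 to 0.391.

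Set directly against each other, the stimuli differed in most of the family. With IFN-γ against *E. coli*, 1 of 9 members was higher and 6 were lower, beside 14.1% and 11.5% of genes. *Lair1* was higher with IFN-γ by 5.25 ± 0.22 (SE) on the log2 scale, a 38.1-fold difference. *Trem1* was lower by -3.13 ± 0.13 and *Pilra* by -2.29 ± 0.13. The other lower members were *Trem3* at -1.35, *Pilrb1* at -1.02, *Tarm1* at -0.94 and *Treml2* at -0.76. *Pilrb2* at -0.22 and *Treml4* at 0.89 were not called. Values of the 7 called members did not overlap between the 2 groups, nor did those of 42.8% of all genes.

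The joint effect of both stimuli was called below the sum of their log2 effects for 3 of 9 members, where 2.04% of genes were called lower and 2.58% higher. These values are made of the changes known when the family was picked. The interaction was -2.49 ± 0.22 (SE) for *Trem1*, -1.55 ± 0.41 for *Trem3* and -0.84 ± 0.14 for *Treml2*. *E. coli* raised *Trem1* by 4.73 without IFN-γ and by 2.24 with it. The *Trem3* call was lost without library a (-1.38) or c (-1.61), *E. coli* library 1 (-1.55) or 2 (-1.53), IFN-γ library 3 (-1.35), library 1 (-1.47) or 3 (-1.49) of the combination, and with DESeq2 (-1.57). *Pilra* at -0.58 ± 0.18 was not called with all libraries, and it was called without IFN-γ library 2 (-0.72) or library 3 of the combination (-0.68), with no filter on low counts (-0.65) and after the correction for the ceiling (-0.67). *Lair1* at 0.76, *Tarm1* at -0.59, *Pilrb1* at -0.41, *Pilrb2* at -0.31 and *Treml4* at -1.06 ± 0.75 were not called, and the last was -2.05 without library 1 of the combination.

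IL-4 responses were set against each of the others in a model of all 18 libraries, as the difference between log2 fold changes against the unstimulated libraries of each set. Any difference between the sets that alters a response is part of these values, as is any difference in kind between their counts, and they too are made of the changes known when the family was picked. Against the *E. coli* response, 1 of 9 members was higher and 8 were lower, beside 14.4% and 13.7% of 10671 genes. *Trem1* was lower by -4.14 ± 0.36 (SE) and *Pilra* by -3.93 ± 0.18, and *Lair1* was higher by 2.09 ± 0.36. *Tarm1* was lower by -0.85 ± 0.27, a call lost without library a (-0.73), f (-0.78), *E. coli* library 3 (-0.61) or IL-4 library 1 (-0.71). *Treml4*, *Trem3*, *Pilrb1*, *Pilrb2* and *Treml2* were lower by -3.51 ± 0.88, -2.51, -2.47, -2.30 and -0.66.

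Against the IFN-γ response, 5 of 9 members were called lower, where 13.0% of genes were higher and 14.7% lower. From the largest to the smallest difference, these were *Treml4* at -4.42 ± 0.86 (SE), *Lair1* at -3.19 ± 0.30, *Pilrb2* at -2.10, *Pilra* at -1.65 ± 0.19 and *Pilrb1* at -1.47. *Trem1* at -1.03 ± 0.40 was not called with all libraries, and it was called without library f (-1.36) or IL-4 library 2 (-1.24), with DESeq2 (-1.06) and with no filter on low counts (-1.02). Against the response to both stimuli, 8 of 9 members were lower, where 18.5% of genes were higher and 20.7% lower. *Pilra*, *Trem1*, *Pilrb2*, *Pilrb1* and *Lair1* were lower by -3.68, -3.30, -2.83, -2.60 and -2.55, and *Treml4*, *Trem3* and *Tarm1* by -4.11 ± 0.89, -1.73 and -1.04. Over the alternatives *Treml4* ranged from -4.64 to -3.09, from -5.54 to -3.998 and from -5.24 to -3.13 in the IL-4 response against those to *E. coli*, IFN-γ and both. The *Trem3* call was lost without library a (-1.56), f (-1.41) or library 2 of the combination (-1.50). *Treml2* at 0.36 was not called, while it was called without library e and after the correction for the ceiling, at 0.51 and 0.52. Without library e, the other calls of the IL-4 response against each other response were made as with it.

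The balance of activating and inhibitory members was read from ratios of counts within a library, with 1 count added to each sum and no test. The log2 ratio of *Pilrb1* and *Pilrb2* to *Pilra* was 0.23 ± 0.12 (SD, n = 3) in unstimulated libraries a to c, -1.05 ± 0.14 with *E. coli*, 0.57 ± 0.24 with IFN-γ and -0.51 ± 0.10 in the combination. *Pilra* thus gained on its partners in every library with *E. coli*, by -1.28 ± 0.11 (SE) alone and -0.74 ± 0.09 in the combination, without overlap with unstimulated libraries. Corrected for the ceiling, the former was -1.43. IFN-γ libraries overlapped with unstimulated ones, at 0.34 ± 0.16, as did those with IL-4, at 0.26 ± 0.19, or 0.36 ± 0.22 without library e, since *Pilra*, *Pilrb1* and *Pilrb2* all fell with IL-4.

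The log2 ratio of *Tarm1* to *Lair1* was 0.79 ± 0.56 (SD, n = 3) in libraries a to c, 3.76 ± 0.56 with *E. coli*, -2.37 ± 0.22 with IFN-γ and -0.59 ± 0.55 in the combination. It moved up by 2.98 ± 0.46 (SE) with *E. coli* and changed by -3.16 ± 0.35 with IFN-γ and -1.38 ± 0.45 in the combination, each without overlap. With IL-4 it was 0.79 ± 0.42 against 0.63 ± 0.51 in libraries d to f, and these overlapped, also without library e. The ratio thus moved in opposite senses with *E. coli* and IFN-γ. With *E. coli* *Tarm1* rose and *Lair1* fell, while with IFN-γ both rose, by 0.75 and 3.83 on the log2 scale.

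Summed over the classes, the log2 ratio of 7 activating to 2 inhibitory members was 0.54 ± 0.22 (SD, n = 3) in libraries a to c, 0.32 ± 0.09 with *E. coli*, -0.59 ± 0.04 with IFN-γ and -0.06 ± 0.04 in the combination. The change was -0.23 ± 0.14 (SE) with *E. coli*, where groups overlapped, and -1.14 ± 0.13 with IFN-γ and -0.61 ± 0.13 in the combination, where they did not. Over the alternatives the change with *E. coli* ranged from -0.35 to -0.13. With IL-4 the ratio was 0.80 ± 0.25 against 0.09 ± 0.22, a change of 0.71 ± 0.19 without overlap, or 0.82 ± 0.17 without library e. These sums rest on few genes. *Pilra* held 81.6% of the inhibitory sum in unstimulated libraries a to c and 98.6% with *E. coli*, and *Lair1* held 73.0% with IFN-γ. *Trem1* went from 6.62% to 40.9% of the activating sum with *E. coli*, and *Tarm1* from 32.3% in libraries d to f to 53.9% with IL-4.

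**Figure D2:**
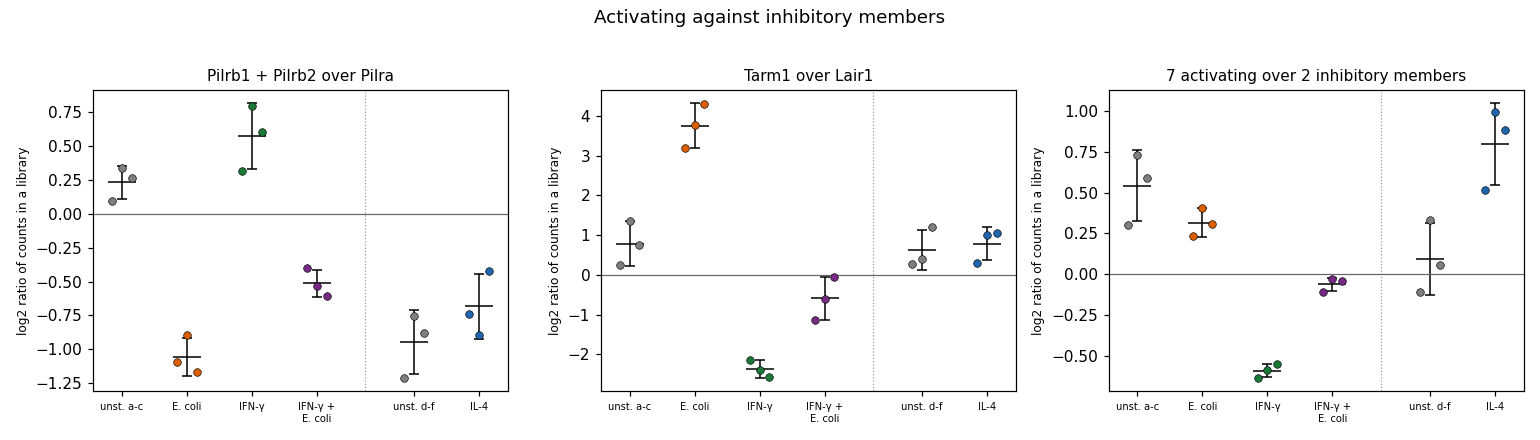
Log2 ratio of counts of activating to inhibitory members (vertical axes) in each of the 18 libraries, with 1 point per library, the mean as a horizontal line and the SD as error bars (n = 3). The dotted line separates the sets, which are not compared. *Tarm1* over *Lair1* has a mean of 3.76 with *E. coli* and -2.37 with IFN-γ, above and below all unstimulated libraries.

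Of the adaptors, *Tyrobp* and *Fcer1g* were abundant in every group. *Tyrobp*, which encodes DAP12, stood at 1464 ± 310 CPM (SD, n = 3) in libraries a to c, 1338 ± 139 with *E. coli*, 1634 ± 162 with IFN-γ and 1493 ± 107 in the combination, with no call. Its counts reached 52.0% to 87.6% of the ceiling in the first set, so changes there may be compressed, and after the correction it was called lower with both stimuli, at -0.32. *Fcer1g*, the Fc receptor γ chain, at 42.4% to 72.7% of the ceiling, was called higher with IFN-γ, by 0.37 ± 0.13 (SE) on the log2 scale, and with both, by 0.52 ± 0.13, and after the correction also with *E. coli*, at 0.43. *Hcst*, which encodes the adaptor DAP10, fell from 138 ± 30.9 CPM to 57.3 ± 5.17, 68.4 ± 11.8 and 45.0 ± 11.9 CPM with *E. coli*, IFN-γ and both. With IL-4 *Tyrobp* was called lower, from 2407 ± 317 to 1789 ± 80.8 CPM, by -0.43 ± 0.12 on the log2 scale, or -0.32 without library e, while *Fcer1g* at -0.48 ± 0.14 and *Hcst* at 0.50 ± 0.15 were not called. Without library e *Fcer1g* was called lower, at -0.31, and *Hcst* higher, at 0.57.

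The counts of the lists that follow stand beside 13.5% of all genes tested called higher and 16.7% lower with *E. coli*, 15.6% and 16.0% with IFN-γ, 23.9% and 25.2% with both, and 5.97% and 4.35% with IL-4, and beside medians of all genes of -0.02, -0.03, -0.04 and 0.00, and nothing is read from them. Of 18 kinases and other signalling proteins downstream of the adaptors, 3 were called higher and 3 lower with *E. coli*, 5 and 1 with IFN-γ, and 7 and 5 with both, and 1 was higher with IL-4, with medians of 0.05, 0.04, 0.17 and 0.00 on the log2 scale. *Tec*, a kinase that acts on phospholipase C, rose from 159.9 ± 11.6 CPM (SD, n = 3) to 317 ± 15.4, 456 ± 35.5 and 649 ± 55.6 CPM with *E. coli*, IFN-γ and both. The Src family kinase *Fgr* rose with *E. coli* by 0.89 ± 0.11 (SE) on the log2 scale, *Malt1* of the NF-κB pathway with both by 1.57 ± 0.22, and *Btk* with IL-4 by 0.67 ± 0.11, or 0.72 without library e. Of 11 phosphatases and other proteins that restrain such signals, 1 was higher and 2 lower with *E. coli*, 2 and 2 with IFN-γ, and 2 and 3 with both, and with IL-4 all 11 were tested and not called, with medians of -0.05, 0.19, -0.23 and -0.14. *Ptpn11*, which encodes a phosphatase recruited by inhibitory receptors, rose by 0.71 ± 0.10 with *E. coli*, and the adaptor *Dok3* fell with *E. coli*, IFN-γ and both, with log2 fold changes of -0.46 ± 0.12, -0.74 ± 0.12 and -1.22 ± 0.12.

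Few genes for reported ligands of the family passed the filter on low counts in the first set. Of 19 listed, 6 were tested in the first set and 11 in the second, with 1 called lower with *E. coli*, 1 higher and 2 lower with IFN-γ, 2 and 2 with both, and 1 and 1 with IL-4. Their medians were -0.45, 0.21, 0.19 and -0.06. *Pglyrp1*, which encodes a ligand of TREM1, went opposite to *Trem1*, from 887 ± 186 CPM (SD, n = 3) in libraries a to c to 223 ± 33.3, 181 ± 16.2 and 86.3 ± 10.4 CPM with *E. coli*, IFN-γ and both. With IL-4 it rose from 490.0 ± 29.6 to 795 ± 158 CPM, by 0.70 on the log2 scale and 0.74 without library e. *Apoe*, a ligand of TREM2, rose by 0.82 ± 0.23 (SE) with both stimuli, and *C1qb*, whose protein binds LAIR1, by 1.04 ± 0.23 with IFN-γ and 0.85 ± 0.23 in the combination. *C1qb* is also a macrophage marker.

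Proteases that can release such receptors from the surface were tested as 4 genes, of which 3 were called higher with *E. coli*, 3 with IFN-γ and 2 in the combination, and 2 were called lower with IL-4, with medians of 0.51, 0.90, 0.67 and -0.87. *Mmp8* went from 9.90 ± 0.350 CPM (SD, n = 3) to 29.7 ± 3.84, 38.0 ± 7.49 and 204 ± 8.67 CPM with *E. coli*, IFN-γ and both. *Adam17* rose by 0.38 ± 0.13 (SE), 1.01 ± 0.13 and 1.16 ± 0.13 in this order, and *Mmp9* fell with IL-4 from 182 ± 55.3 to 35.3 ± 2.90 CPM, at -2.37 on the log2 scale and -2.09 without library e. In the *Trem* cluster, *Nfya* rose by 0.53 ± 0.19, 0.60 ± 0.20 and 0.77 ± 0.20 with *E. coli*, IFN-γ and both, and *Treml1*, a receptor of platelets, had 0 counts in the first set and at most 2 in the second.

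Of 16 other paired receptors tested in the first set, 3 were called higher and 3 lower with *E. coli*, 2 and 3 with IFN-γ, and 2 and 7 with both, and of 15 in the second set 2 were higher and 5 lower with IL-4. Medians were 0.10, -0.09, -0.28 and -0.25. The inhibitory lectin *Clec12a* fell from 374 ± 75.1 CPM (SD, n = 3) to 27.8 ± 5.13, 37.5 ± 11.8 and 5.30 ± 1.15 CPM with *E. coli*, IFN-γ and both. *Cd200r4*, an activating receptor that uses DAP12, rose from 14.3 ± 2.30 to 22.5 ± 2.56, 63.3 ± 8.24 and 85.7 ± 1.87 CPM. With IL-4 the activating *Lilra6* and the inhibitory *Pirb* of the leukocyte receptor complex fell by -1.01 ± 0.12 (SE) and -0.98 ± 0.12, or -0.98 and -0.92 without library e.

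Genes whose pattern was most like that of a member were sought among 7918 genes with a mean of at least 10 CPM, by the root mean square difference of centred log2 CPM over the 12 libraries of the first set. *Trem1* was closest to *Il13* (0.449), *Phlda1* (0.552) and *Ifitm1* (0.689), and *Pilra* to *Tnf* (0.195), *Lhfpl2* (0.266) and *6530402F18Rik* (0.283). *Lair1* was closest to the guanylate-binding genes *Gbp4* (0.507) and *Gbp8* (0.540) and to *Gm12185* (0.597). *Pilrb1* and *Tarm1* shared *Plaur* as the nearest gene (0.165 and 0.231), followed by *Rgcc* (0.210) and *Phldb3* (0.227) for the former and *Nupr1* (0.279) and *Socs3* (0.281) for the latter. The nearest were *Acpp* (0.128), *Csf2rb2* (0.142) and *Ap3s1* (0.154) for *Pilrb2*, *Srf* (0.111), *Mlec* (0.130) and *Rfx7* (0.136) for *Treml2*, and *Emb* (0.257), *Dnmt3l* (0.265) and *Smurf1* (0.298) for *Trem3*.

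Promoters, taken as 250 bases before to 50 after the start of a gene from RefSeq on GRCm38.p6, were at hand for 8 of the 10 members, and not for *Trem3* and *Treml2*. Both strands were searched for the interferon-γ activated site TTCNNNGAA (in 8.30% of 32851 promoters), an interferon-stimulated response element of GAAA, NN and GAAA in a row (3.44%), an ETS motif GAGGAA (28.3%), an AP-1 motif TGANTCA (7.81%) and an NF-κB motif (8.46%). A match is a description of letters, not a site. The promoters of the *Pilr* genes are shown because these genes all rose with *E. coli* and fell with IL-4 and share most of the sequence. *Pilra* equalled *Pilrb1* at 242 of 246 aligned bases and *Pilrb2* at 244 of 246, and *Pilrb1* equalled *Pilrb2* at 292 of 300. All 3 hold GAAATGGAAA, at position -178 of *Pilra* and -232 of *Pilrb1* and *Pilrb2*, and *Pilra* holds GAGGAA at -211, which lies before the aligned stretch, in bases that the windows of the others do not reach. Sequences run 5′ to 3′ on the minus strand, chr5:137836229-137836528, chr5:137858000-137858299 and chr5:137871709-137872008, with motif matches in capitals.
Pilra: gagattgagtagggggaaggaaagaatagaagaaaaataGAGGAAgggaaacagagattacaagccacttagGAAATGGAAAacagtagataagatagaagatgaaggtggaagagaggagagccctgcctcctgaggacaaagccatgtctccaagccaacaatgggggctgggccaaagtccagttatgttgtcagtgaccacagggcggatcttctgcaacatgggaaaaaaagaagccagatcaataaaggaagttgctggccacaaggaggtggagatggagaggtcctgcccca
Pilrb1: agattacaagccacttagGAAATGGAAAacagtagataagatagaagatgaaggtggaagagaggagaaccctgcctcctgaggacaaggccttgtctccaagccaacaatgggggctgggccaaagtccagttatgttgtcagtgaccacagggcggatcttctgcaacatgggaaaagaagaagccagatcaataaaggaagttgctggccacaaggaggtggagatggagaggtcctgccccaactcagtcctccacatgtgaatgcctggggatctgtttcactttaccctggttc
Pilrb2: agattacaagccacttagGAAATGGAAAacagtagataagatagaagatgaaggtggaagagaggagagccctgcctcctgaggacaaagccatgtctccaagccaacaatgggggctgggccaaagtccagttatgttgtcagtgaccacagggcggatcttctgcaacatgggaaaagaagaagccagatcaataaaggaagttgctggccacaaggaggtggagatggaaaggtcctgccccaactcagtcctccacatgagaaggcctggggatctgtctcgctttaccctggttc

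The promoters of *Trem1* and *Lair1* are shown as those of the members that moved most with *E. coli* and with IFN-γ. That of *Trem1* (chr17:48232489-48232788, plus strand) holds TTCAGAGAA, a match to the interferon-γ activated site, at position -171 and GAGGAA at -162. That of *Lair1* (chr7:4063155-4063454, minus strand) holds TTCCTC, the ETS motif on the opposite strand, at -26 and no other letters searched for. Of the others, *Tarm1*, *Trem2* and *Treml4* hold ETS matches and *Trem2* also the AP-1 match TGAATCA at -9.
Trem1: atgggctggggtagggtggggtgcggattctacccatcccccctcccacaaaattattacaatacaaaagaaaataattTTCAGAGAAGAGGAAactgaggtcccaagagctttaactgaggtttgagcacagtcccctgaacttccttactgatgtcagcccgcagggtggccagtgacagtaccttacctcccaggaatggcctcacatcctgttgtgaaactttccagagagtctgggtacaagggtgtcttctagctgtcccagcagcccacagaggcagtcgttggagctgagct
Lair1: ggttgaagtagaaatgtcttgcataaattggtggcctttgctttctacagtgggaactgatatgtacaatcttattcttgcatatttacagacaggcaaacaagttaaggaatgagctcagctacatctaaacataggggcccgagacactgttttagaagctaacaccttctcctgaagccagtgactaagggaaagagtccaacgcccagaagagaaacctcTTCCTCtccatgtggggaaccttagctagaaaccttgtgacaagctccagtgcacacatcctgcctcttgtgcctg

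Markers of the sorted cells and of others were measured in the same libraries. Of 10 eosinophil markers, 7 to 10 exceeded 3 counts in a library, and their summed level was 5216 ± 815 CPM (SD, n = 3) in libraries a to c, 4400.1 ± 320.5 with *E. coli*, 5232 ± 554 with IFN-γ, 4202 ± 315 with both, 6225 ± 544 in libraries d to f and 5545 ± 132 with IL-4, led by *Alox15* or *Ccr3*. Of the 7 tested in the first set, 1 was called higher and 2 lower with *E. coli*, 1 and 4 with IFN-γ and 1 and 4 with both, and of 10 in the second 4 were higher and 2 lower with IL-4. *Siglecf* fell from 1020.4 ± 127 CPM in libraries a to c to 636 ± 20.1, 626 ± 81.9 and 348 ± 24.8 CPM with *E. coli*, IFN-γ and both, and rose from 707 ± 32.2 to 925 ± 15.9 CPM with IL-4, by 0.39 on the log2 scale and 0.42 without library e. *Ear6* went from 36.6 ± 8.57 to 87.5 ± 6.59, 18.7 ± 2.03 and 51.4 ± 5.75 CPM with *E. coli*, IFN-γ and both. With IL-4, *Ear6*, *Prg2* and *Il5ra* were also called higher, at 1.34, 0.83 and 0.60, or 1.39, 1.13 and 0.55 without library e. *Ccr3* and *Adgre1* were called lower, at -0.72 and -0.80, or -0.54 and -0.69 without library e. The counts of *Siglecf* reached 62.4% of the ceiling in the first set, so its changes there may be compressed. The part of these markers in the results of the members was not tested. *Epx*, eosinophil peroxidase, was at most 1.90 CPM in the first set.

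Of 12 macrophage markers, 9 to 12 exceeded 3 counts in a library and at most 1 was at 0. Their sum was 2301 ± 150 CPM (SD, n = 3) in libraries a to c, 1958 ± 677 with *E. coli*, 3212 ± 108 with IFN-γ and 3854 ± 626 in the combination, and it went from 5009 ± 717 to 3773 ± 297 CPM with IL-4, with *Lyz2* or *Cd14* the most abundant. Of the 10 tested in the first set, 1 was called higher and 3 lower with *E. coli*, 5 and 1 with IFN-γ, and 4 were higher with both, and of 11 in the second 4 were lower with IL-4. The sum moved up with *Lair1* in IFN-γ and in the combination and down with *Pilra*, *Pilrb1* and *Pilrb2* in IL-4, and its part in these results was not tested. With *E. coli*, where *Lair1* fell, *Marco* fell from 163 ± 2.62 to 50.07 ± 15.0 CPM, *Timd4* from 28.1 ± 4.55 to 9.43 ± 2.95 CPM and *Lyz2* from 863 ± 39.1 to 460.3 ± 187 CPM, while *Cd14* rose to 726 ± 292 CPM. The 4 called in the combination, named after their values were seen, were *Cd14*, from 424 ± 58.1 to 1394 ± 261 CPM, *Marco*, from 163 ± 2.62 to 408 ± 77.7 CPM, *C1qb*, from 143 ± 19.3 to 259 ± 75.6 CPM, and *Mertk*, from 5.93 ± 2.95 to 19.7 ± 1.93 CPM, and these and *Csf1r* were the 5 called higher with IFN-γ. In *E. coli* libraries 1, 2 and 3 the sum was 1591, 1542 and 2739 CPM and *Trem1* stood at 215, 228 and 219 CPM. In bulk RNA, fewer cells of a type and less RNA per cell cannot be told apart.

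Neutrophil markers, of which 4 to 9 of 11 exceeded 3 counts, summed to 638 ± 70.7 CPM (SD, n = 3) in libraries a to c, 467 ± 33.4 with *E. coli*, 699.8 ± 53.4 with IFN-γ, 415 ± 44.9 with both, 1882 ± 169 in libraries d to f and 815 ± 28.3 with IL-4. Most of each sum was *Retnlg*, while *Ltf*, *Ngp*, *Camp*, *Mpo* and *Elane*, which neutrophil precursors express, were low, with at most 1.63 CPM in any library for the first 4 and 4.67 CPM for *Elane*, in an IL-4 library. With *E. coli*, *Retnlg* fell from 584 ± 79.7 to 287 ± 11.0 CPM, while *S100a8* rose from 8.58 ± 1.959 to 72.1 ± 43.7 CPM and *Cxcr2* from 26.2 ± 3.72 to 88.5 ± 7.83 CPM, as *Trem1* did. With IL-4, *Retnlg* fell from 1855 ± 172 to 755 ± 43.6 CPM, as the *Pilr* genes did, and *Cxcr2* rose from 3.76 ± 1.22 to 32.1 ± 9.37 CPM, as *Tarm1* did, with log2 fold changes of -1.30 and 3.09, or -1.27 and 2.82 without library e. *S100a8* and *Ly6g* were the 2 called higher with IFN-γ and with both, as *Lair1* was. In the same groups *Cxcr2* went the other way, from 26.2 ± 3.72 to 7.78 ± 1.92 and 16.1 ± 6.02 CPM. *Retnlg* stood at 615 ± 48.4 CPM with IFN-γ and 312 ± 26.7 CPM with both, against 584 ± 79.7 CPM in libraries a to c. The part of neutrophils in these results was not tested. Of 5 tested in the first set, 2 were called higher and 1 lower with *E. coli*, 2 and 1 with IFN-γ and 2 and 2 with both, and of 6 in the second 1 was higher and 1 lower with IL-4. B cell markers, led by *Ighm*, summed to 174 ± 51.0 CPM in libraries a to c, 53.1 ± 19.7 with *E. coli*, 72.4 ± 22.6 with IFN-γ, 123 ± 7.34 with both, 30.5 ± 11.2 in libraries d to f and 63.4 ± 5.06 with IL-4. Of 5 tested, 5 were called lower with *E. coli*, as *Lair1* was. With IFN-γ 4 were called lower, while *Lair1* was called higher, and with IL-4 3 of 4 were higher. Mast cell markers summed to 8.96 ± 1.61 CPM in libraries a to c, 18.1 ± 15.2 with *E. coli*, 21.3 ± 10.1 with IFN-γ, 64.6 ± 21.5 with both, 7.84 ± 1.65 in libraries d to f and 16.3 ± 7.86 with IL-4. Of 2 tested, *Tpsb2* was called higher with IFN-γ and *Cma1* and *Tpsb2* with both, as *Tarm1* was.

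Platelet markers, led by *Pf4* or, in IL-4 libraries 1 and 2, by *Itga2b*, stood between 391 ± 9.87 and 677 ± 65.7 CPM in a group. Of 3 tested, *Ppbp* was called higher with *E. coli*, IFN-γ and both, from 9.59 ± 5.55 CPM (SD, n = 3) to 69.7 ± 5.95, 112 ± 15.2 and 182 ± 14.6 CPM, and lower with IL-4, from 98.6 ± 50.6 to 7.85 ± 1.32 CPM, at -3.67 on the log2 scale and -3.16 without library e, in the directions of *Pilrb1* and *Pilrb2*. *Pf4* was called lower with IFN-γ and *Itga2b* with both. T cell and dendritic cell markers summed to at most 6.12 ± 2.64 and 12.2 ± 4.60 CPM in a group. The part of these cells in the levels of the members was not tested.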

How the data were processed

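Count tables per gene were deposited by the authors, 1 for each of 18 CEL-Seq2 libraries. The authors aligned reads with Tophat 2.1.0 to GRCm38 and counted uniquely mapped reads on Ensembl 97 genes with HTSeq 0.6.1 in union mode. The submitters' processing notes also name fastp 0.20.1 and STAR 2.7.2a, without saying for which libraries. The strand setting, and whether molecular identifiers were collapsed, were not given in the sources used here. Reads on no gene, 18.9% to 37.6% of the counts in the first set, were left out of library sizes and tests. Symbols were found for 98.3% of identifiers in the first set and 99.7% in the second.

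Counts were filtered with filterByExpr, scaled by TMM and tested with the quasi-likelihood test of edgeR 4.0.16 in R 4.3.3, with Benjamini-Hochberg adjustment over all genes tested. The first set was fitted as 12 libraries in 4 groups, the IL-4 set as 6 libraries, and responses were compared in a fit of 18. The steps were tested on simulated data. Alternatives were DESeq2 1.42.0, no filter, a factor of 2, each library left out, the replicate number as a block, all unstimulated libraries as one group, and 2 chosen after seeing the data, a correction for a ceiling of 4096 counts and, for genes of the lists, the IL-4 set without unstimulated library e. Similar transcripts were sought with BLAST+ 2.17.0 at 95% identity over 200 bases. Tables were made with Python 3.11.15 and pandas 2.3.3.

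The members and the lists of other genes were chosen with earlier results of these data known. All 10 members are named. Of each list the text names among the 3 called genes with the largest absolute log2 fold change in a comparison, at a group mean of 5 CPM or more, and always the adaptors *Tyrobp*, *Hcst* and *Fcer1g*. Outside this rule, and after their values were seen, it names *Treml1*, the most abundant markers, *Epx* and the eosinophil markers given beside *Siglecf*. Named in the same way are neutrophil precursor genes, macrophage markers called in the first set and list genes whose call changed without library e. The 3 genes nearest to a member by root mean square difference are also named.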

Additional observations from a re-analysis of the deposited data

Results flagged for a closer look

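The effect of *E. coli* was lower on the log2 scale with IFN-γ than without it for 3 members, in the interaction of edgeR's fit of the 12 libraries of the first set. The family was picked with these changes known, so the values are a description. The log2 effect with IFN-γ minus that without was -2.49 for *Trem1*, -1.55 for *Trem3* and -0.84 for *Treml2*. The value for *Trem3*, a low transcript, ranged from -1.79 to -1.35 over the alternatives and lost its call in several of them.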

How the results depend on the processing

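Of the log2 fold changes of single members in the fits under each alternative, 1447 kept their direction and side of the threshold, 58 lost the call, 27 gained it and 9 changed sign. Of these 9, 1 was called with all libraries, and they concern 3 members. With all 6 unstimulated libraries as one group, which joins the sets, *Treml2* was at -0.061 with *E. coli* and 0.33 with IL-4, and *Treml4* at -0.12 with *E. coli*. In the same setting the calls with IFN-γ of *Trem1*, *Tarm1* and *Treml4* were lost, at 0.64, 0.41 and 0.77, and *Treml2* was called with IFN-γ, at -0.80, and *Trem1* and *Lair1* with IL-4, at 1.13 and 1.00. Over the libraries left out in turn, *Treml2* with IL-4 ranged from -0.24 to 0.042, the latter without library e, and its IL-4 response against the IFN-γ response from -0.052 without library f to 0.23. *Treml4* with both stimuli ranged from -1.32 to 0.052 against IFN-γ, the latter without library 2 of the combination, and from -0.42 without its library 1 to 0.94 against *E. coli*. *Tarm1* in the IL-4 response against the IFN-γ response ranged from -0.037 without IFN-γ library 3 to 0.22, and was at -0.01 without IL-4 library 3. The cause was not tested. Of the genes of the lists, *Xcr1* lost its call with IL-4 without library e, going from 1.34 to 1.16. *Mrc1* (2.19), *Hcst* (0.57), *Cd300c2* (0.47), *Itga2b* (0.36), *Fcer1g* (-0.31), *Cd14* (-0.33), *Cd300ld* (-0.33) and *Apoe* (-0.43) gained it, and the other calls of list genes were kept. This alternative was chosen for these genes after seeing the data.

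Where calls also had to reach a factor of 2, the members called were 3 with IFN-γ (6 without this), 3 with IL-4 (5) and 2 with both stimuli against *E. coli* (5), since fewer changes can pass. Leaving out 1 library gave 2 to 6 members called with IL-4. All genes called with IL-4 were 1089, against 478 with the factor, 1634 with no filter, 1662 with all unstimulated libraries as one group, 1892 in the fit of 18 libraries, and 483 to 1394 with 1 library left out. The factor left 1023 of 2986 genes with *E. coli*, 1187 of 3120 with IFN-γ and 2210 of 4844 with both, and 404 of 1209 and 1325 of 3240 with both against IFN-γ and against *E. coli*. It left 1027 of 2525 with IFN-γ against *E. coli*, 245 of 457 in the interaction, and 1787 of 2995, 1789 of 2964 and 2728 of 4184 in the IL-4 response against those to *E. coli*, IFN-γ and both. With 1 library left out, at least 740 genes were called with both against IFN-γ and at least 266 in the interaction. Corrected for the ceiling, the change in the ratio of *Pilrb1* and *Pilrb2* to *Pilra* with *E. coli* was -1.43 in place of -1.28. Scaling to library totals moved the median gene by -0.25 with both stimuli and -0.17 with IFN-γ against unstimulated, and by -0.23 and -0.15 against *E. coli*. In these levels, which were not fitted, *Pilrb1* and *Tarm1* with both against *E. coli* also changed sign, from 0.09 to -0.14 and from 0.14 to -0.08.

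The labels do not say whether libraries of the same replicate number belong together. Correlations of their deviations ran from -0.045 to 0.331, and some but not all exceeded 0.1. These values do not settle whether the libraries were paired, and the main fits used no pairing. With a replicate block, 7 members were called with both stimuli against IFN-γ in place of 6, 6 against *E. coli* in place of 5, and 7 with IFN-γ against *E. coli* as before. *Treml2* against IFN-γ, at -0.33, and *Pilra* against *E. coli*, at -0.29, gained the call, and no other member's call changed. Depth limits *Trem2*, with at most 3 counts in the first set, and *Treml4*, with 4 to 14.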
